A study of Drosophila melanogaster with 9 samples.

Results

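The genes described here were 57 of the 10242 measured in the fat body of Drosophila melanogaster. They were chosen from their values. In each, the lowest of the 3 prepupa libraries titled mitf was at least 300 in the deposited unit, and it was at least 16 times the highest of the other 6 libraries. Another 5 genes that met both thresholds were left out by name. The libraries fall into 3 groups of 3, each library made from the fat bodies of 5 animals: white prepupae titled mitf, white prepupae titled LacZ, and larvae of the third instar, titled e3IL. All carried Lsp2-GAL4, which drives transgenes in the fat body. The genotype label gives UAS-Mitf to all 6 prepupa samples and UAS-LacZ to the larvae.

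The labels conflict, and the Mitf transcript shows how. Mitf stood at 347, 370.4 and 407 in the prepupae titled mitf, against 35204, 68535 and 45647 in those titled LacZ and 378, 385 and 411 in larvae. The prepupae titled mitf were at the larval level, and the column names of the deposited values call them LacZ. The 57 genes were thus high in prepupae without raised Mitf transcript, and low both in prepupae with raised Mitf transcript and in larvae. The groups are named by their sample titles throughout. The study set prepupae with Mitf overexpressed against prepupae without it, and prepupae against larvae. All eggs spent 21 h at 21 °C and the animals were then raised at 25 °C, so both prepupa groups and the larvae shared their rearing. No label ties replicates to separate crosses or days, so p-values measure the spread between these libraries, which may be technical.

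The larval fat body stores protein, fat and glycogen and secretes most proteins of the hemolymph. Around puparium formation, pulses of the steroid hormone ecdysone end larval life, and the fat body takes storage proteins back up from the hemolymph and begins autophagy and remodelling. Mitf is the fly's counterpart of TFEB and its mammalian relatives, transcription factors that drive lysosomal, V-ATPase and autophagy genes.

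**Figure D1:**
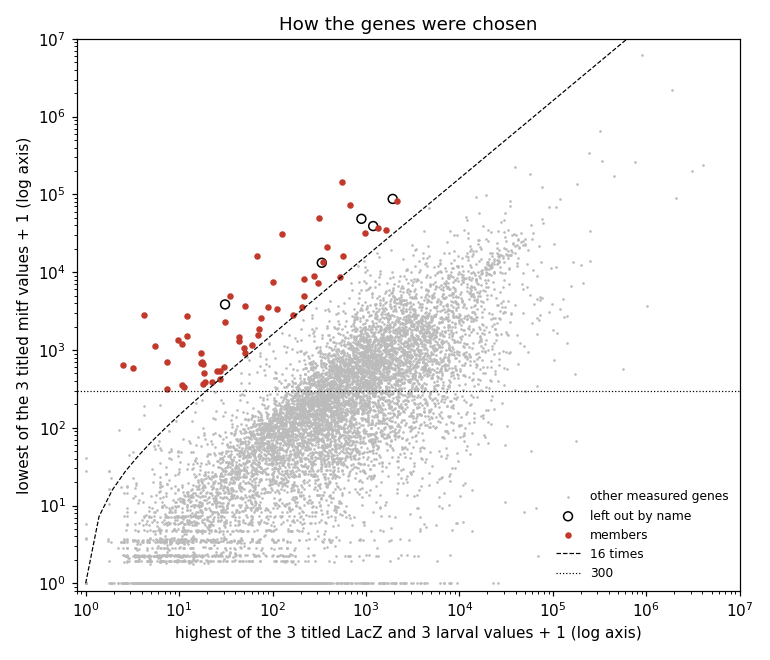
Each point is 1 measured gene, with the lowest of its 3 values in prepupae titled mitf (vertical, deposited value + 1, log axis) against the highest of its 6 values in prepupae titled LacZ and larvae (horizontal). The 57 members lie above both the dotted line at 300 and the dashed line at 16 times, and the 5 open circles are genes left out by name.

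The deposited values summed to between 17195757 and 27178650 per library. Means are given ± SD over the 3 libraries of a group. Of 10 listed fat body markers 9 were measured, and their summed level was 10211237 to 10509601 in prepupae titled mitf, 1129199 to 1562152 in those titled LacZ and 7838388 to 12859651 in larvae. The ecdysone-induced storage protein receptor gene Fbp1 averaged 6366620.1 ± 88202 in prepupae titled mitf, 795011 ± 104455 in those titled LacZ and 7130.1 ± 4844 in larvae, and Lsp2 averaged 2419428 ± 173774, 171615 ± 41094 and 1397910.5 ± 472917 in the same order. Other fat body genes had other orders: the storage protein genes Lsp1alpha, Lsp1beta and Lsp1gamma, the lipoprotein gene apolpp and the fatty acid synthase gene FASN1 were highest in larvae. FASN1 averaged 606 ± 40.4 in prepupae titled mitf, 8194 ± 3373 in those titled LacZ and 534913 ± 29149 in larvae. Of the 9 genes 6 were called higher in prepupae titled mitf than in those titled LacZ and 2 lower, beside 31.6% and 41.1% of all tested genes. Against larvae 2 were called higher in prepupae titled mitf and 5 lower, beside 34.8% and 31.7%. Of 10 salivary gland genes 0 were measured. Genes at 0 made up 9.77% to 10.8% of each library titled mitf, 1.97% to 2.47% of each titled LacZ and 11.5% to 15.1% of each larval library. In bulk tissue, fewer cells of a type and less RNA per cell cannot be told apart.

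Together the 57 genes held 2.92%, 3.04% and 3.00% of the summed signal in the prepupae titled mitf. Their share was 0.0593%, 0.0439% and 0.0441% in the prepupae titled LacZ and 0.0138%, 0.0179% and 0.0166% in larvae. The 5 with the highest values, CG9812, Pepck1, CG2444, CG5697 and CG1607, made up 59.4% of the members' summed signal in the prepupae titled mitf. Mean values there ran from 389.5 ± 84.1 for CG11192 to 165552 ± 17062 for CG9812. They were above 10000 in 12 genes, between 1000 and 10000 in 29 and below 1000 in 16.

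The median ratio of the lowest value in prepupae titled mitf to the highest elsewhere was 35.9, and 15 genes passed 100. On the log2 scale, prepupae titled mitf minus prepupae titled LacZ had a member median of 6.15, against a median of -0.22 over the 10139 tested genes. Prepupae titled mitf minus larvae had a member median of 7.99, against 0.08 over all tested genes. The rule used both contrasts, so these are descriptions and no member was tested in them. For scale, 72.7% of all tested genes were called between both prepupa groups and 66.4% between prepupae titled mitf and larvae. In detail, 31.6% of all tested genes were called higher in prepupae titled mitf than in those titled LacZ, 34.8% higher than in larvae and 16.5% higher than in both (limma, adjusted p under 0.05). With libraries scaled to equal totals, the split of calls between both prepupa groups was 2335 higher and 4950 lower in those titled mitf, against 3200 and 4166 as deposited.

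**Figure D2:**
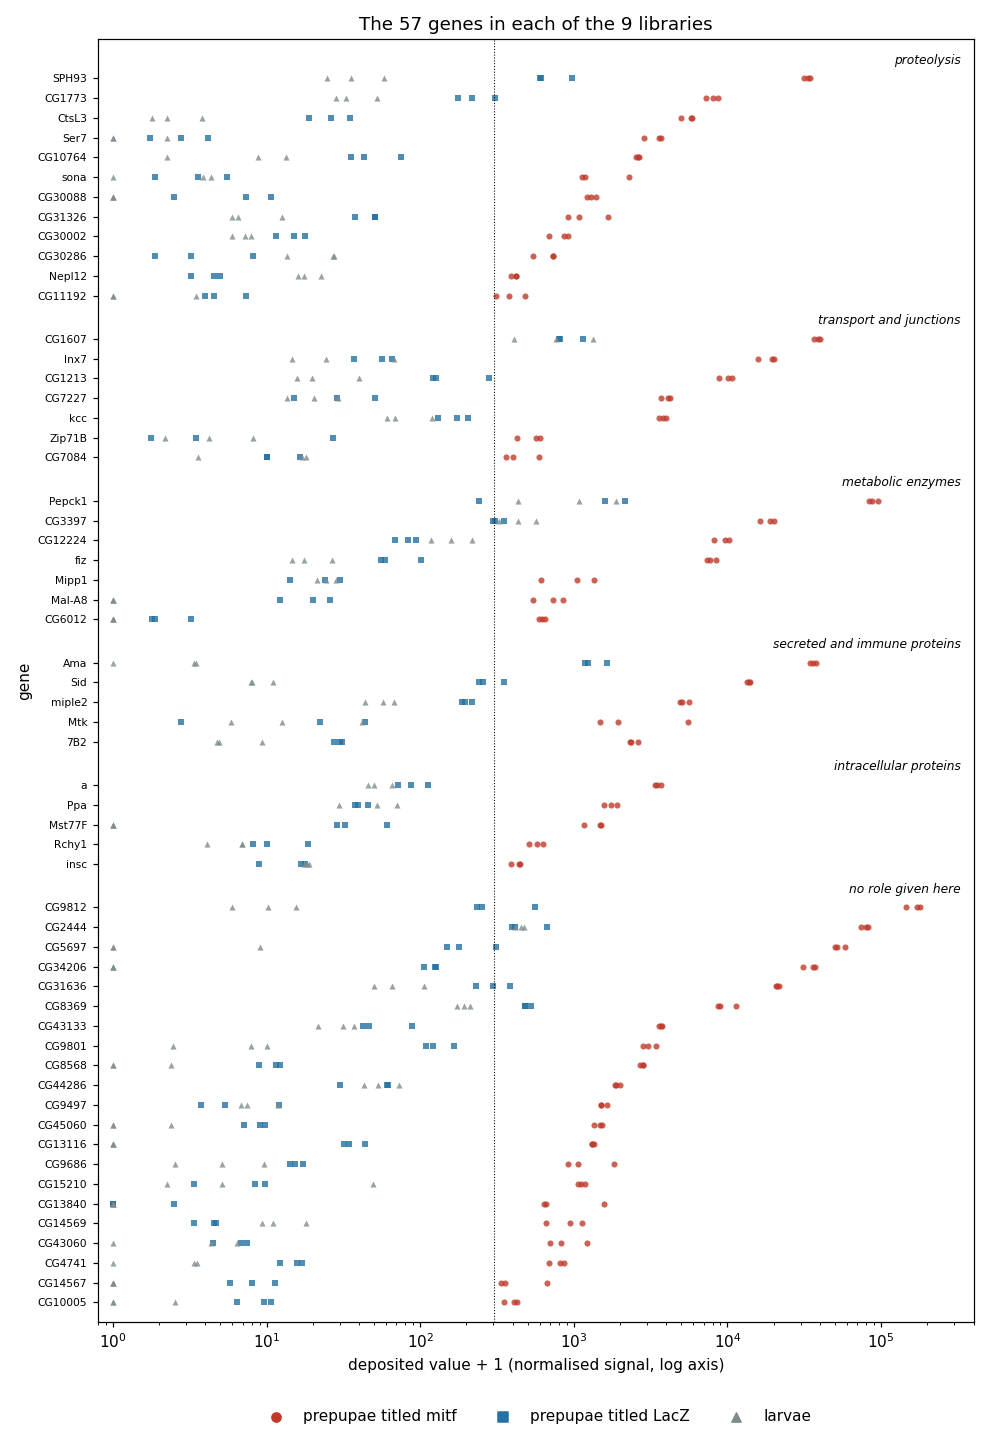
Deposited value + 1 (log axis) of the 57 genes in each of the 9 libraries, 1 row per gene, ordered by functional class and then by mean; circles are prepupae titled mitf, squares prepupae titled LacZ and triangles larvae, 3 points each. The dotted line marks 300. Squares lie right of the triangles in many rows (Ama, SPH93, CG34206) and left of them in a few (CG30286, Nepl12).

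Of the functional classes, drawn up after the values were seen, proteolysis was the largest, with 12 of the 36 genes given a role. The share of this class among all measured genes was not counted. The highest per kilobase of transcript in prepupae titled mitf was SPH93 (chromosome 2L, 17454263 to 17455923, BDGP6.54), a serine protease homologue, at 20921. Its deposited values were 31489, 33663 and 34454 in prepupae titled mitf, against 973, 608 and 604 in those titled LacZ and 34.6, 23.7 and 56.7 in larvae. Its 3 groups did not overlap, and the prepupae titled LacZ kept a level well above larvae. CG1773, a trypsin-family gene, had 7245, 8654 and 7998 in prepupae titled mitf, 215, 304 and 177 in those titled LacZ and 51.2, 27.4 and 31.8 in larvae. It showed the same order of groups.

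Ser7 (chromosome X, 9865233 to 9867070), a clip-domain serine protease, had the largest ratio of all members, 892. Its values were 3561, 2844 and 3695 in prepupae titled mitf, against 3.19, 1.77 and 0.745 in those titled LacZ and 0, 1.25 and 0 in larvae. In the other 6 libraries the gene was thus at the bottom of the measurable range, where a value near 1 is about a single read. Clip-domain proteases are secreted zymogens that act in cascades in the hemolymph, as in Toll activation and melanisation. CG10764, of the trypsin family, had 2658, 2620.2 and 2552 in prepupae titled mitf, 34.3, 74.2 and 41.8 in those titled LacZ and 12.5, 1.25 and 7.77 in larvae. The trypsin-family genes CG30088, CG31326, CG30002, CG30286 and CG11192 averaged 1302 ± 94.7, 1223 ± 395, 823 ± 116, 669 ± 112 and 389.5 ± 84.1 in prepupae titled mitf, and no more than 45.1 in either other group. Of these, CG31326 is listed as a serine protease homologue.

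The remaining proteases belong to other catalytic classes. CtsL3 (chromosome 3R, 6025826 to 6027238), a lysosomal-type cysteine protease related to cathepsin L, had 5844, 5802 and 4950.3 in prepupae titled mitf, against 18, 34 and 25.1 in those titled LacZ and 2.8, 1.26 and 0.786 in larvae. The secreted ADAMTS metalloprotease sona had 1187, 1133 and 2280.1 in prepupae titled mitf, 0.875, 4.57 and 2.59 in those titled LacZ and 2.87, 3.38 and 0 in larvae. Replicate 3 of the prepupae titled mitf stood above the other 2, and both other groups were near 0. Nepl12, a neprilysin-like metallopeptidase, had 389, 419.7 and 421 in prepupae titled mitf, 3.99, 3.53 and 2.24 in those titled LacZ and 16.6, 15 and 21.8 in larvae, with larvae above the prepupae titled LacZ.

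Of 162 measured genes that RefSeq lists under a serine protease (SP or SPH) number, 9 were members. Of the 155 tested, 40 were called higher in prepupae titled mitf in both comparisons, against 16.5% of all tested genes. The 40 include the 9 members, which the rule chose by these same contrasts, so this share is a description. Against prepupae titled LacZ alone, 56 of these genes were called higher and 61 lower, beside 31.6% and 41.1% of all tested genes. Sp7, grass and spirit, clip-domain proteases of melanisation and Toll signalling, averaged 9517 ± 801, 8701 ± 685 and 7057 ± 245 in prepupae titled mitf, 2541 ± 42.7, 2803 ± 266 and 2966 ± 125 in those titled LacZ, and 1144 ± 151, 2044 ± 138 and 2086 ± 117 in larvae. Other such proteases ran the other way between prepupa groups. psh averaged 313 ± 70.9 in prepupae titled mitf, 1241 ± 146 in those titled LacZ and 763 ± 39.9 in larvae. SPE averaged 78.7 ± 0.912, 364 ± 71.6 and 1412 ± 135 in the same order. Of 29 tested clip and trypsin-like proteases, 8 were called higher in prepupae titled mitf than in those titled LacZ and 13 lower. The 8 include the member Ser7. Among 8 measured cathepsins, CtsL1 ran opposite to CtsL3 between both prepupa groups. CtsL1 had 37822, 33948 and 39555 in prepupae titled mitf, against 228271, 251256 and 238935 in those titled LacZ and 419.7, 475 and 698 in larvae, a log2 difference between prepupa groups of -2.69 (limma, adjusted p = 3.8e-07).

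cathD, the aspartic protease cathepsin D, was higher in prepupae titled mitf, with 94775, 93038 and 96560.1 there, 14884, 9664 and 11972 in those titled LacZ and 4168, 3463 and 2320.5 in larvae. The log2 difference between prepupa groups was 2.98 (limma, adjusted p = 8.8e-07). Of 24 neprilysins, 3 were called higher in prepupae titled mitf in both comparisons, Nepl12 by the rule, against 16.5% of all tested genes. Against prepupae titled LacZ 6 were called higher and 12 lower, beside 31.6% and 41.1% of all tested genes. Against larvae 7 were called higher and 12 lower, beside 34.8% and 31.7%. Within the ADAMTS group, AdamTS-A averaged 1419.9 ± 171 in prepupae titled mitf, 3652 ± 998 in those titled LacZ and 488 ± 25.1 in larvae, the opposite order between prepupa groups to sona (log2 difference -1.34, limma adjusted p = 6.1e-05).

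Transporters and junction proteins made up 7 members. CG1607 (chromosome 3R, 31382109 to 31391893), an amino acid transporter of the SLC7 family, had 38988, 36799 and 39950.1 in prepupae titled mitf, against 1148, 804 and 808 in those titled LacZ and 409, 762 and 1339 in larvae. The larval and titled LacZ values overlapped. Inx7 (chromosome X, 6991612 to 6993612), an innexin that forms gap junction channels, had 19545, 15926 and 20134 in prepupae titled mitf, 55, 64.5 and 35.8 in those titled LacZ and 23.5, 13.7 and 66.8 in larvae, where the other 2 groups again overlapped. CG1213, of the sugar transporter family, had 10063, 8864 and 10717 in prepupae titled mitf, 280.2, 126 and 121 in those titled LacZ and 14.7, 18.8 and 38.9 in larvae.

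CG7227, of the CD36 scavenger receptor family, averaged 3997 ± 267 in prepupae titled mitf, with 30.5 ± 17.9 in those titled LacZ and 20.1 ± 7.94 in larvae. The potassium-chloride cotransporter kcc averaged 3797 ± 202 in prepupae titled mitf, 169 ± 37.8 in those titled LacZ and 81.6 ± 31.5 in larvae. Zip71B, a zinc transporter, had 565, 599.9 and 428 in prepupae titled mitf, 2.46, 26.1 and 0.769 in those titled LacZ and 7.13, 1.19 and 3.2 in larvae. A single titled LacZ library, replicate 2, set its ratio of 16.4, the smallest of all members. CG7084, of the organic cation transporter family, had 399, 360.5 and 590.3 in prepupae titled mitf and averaged 11.2 ± 3.65 in those titled LacZ and 11.9 ± 8.1 in larvae.

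Among innexins, cation-chloride cotransporters and Zip genes, some relatives followed other orders. Of 6 measured innexins, Inx2 averaged 4979 ± 993 in prepupae titled mitf, 602 ± 40.2 in those titled LacZ and 2224 ± 126 in larvae, and Inx3 averaged 3201 ± 338, 2537 ± 360.4 and 709 ± 117. Fly innexins assemble into gap junction channels, and Inx2 and Inx3 are broadly expressed in epithelia. Per kilobase of transcript, Inx7 in prepupae titled mitf stood at 11343, against 945 for Inx2 and 1498 for Inx3. NKCC, which imports chloride with sodium and potassium, ran opposite to the exporter kcc between prepupa groups, with 33.9, 34 and 18.5 in prepupae titled mitf, 1965, 2181 and 1465 in those titled LacZ and 6.28, 0 and 1.76 in larvae (log2 difference between prepupa groups -6.00, limma adjusted p = 9.3e-06). The zinc transporter Zip89B did so too, averaging 39.6 ± 32 in prepupae titled mitf, 6402 ± 505 in those titled LacZ and 138 ± 20.5 in larvae (log2 difference -7.62, limma adjusted p = 2.8e-07).

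Pepck1 (chromosome 2R, 18536767 to 18539416) was the highest of 7 metabolic enzymes per kilobase of transcript, at 35763 in prepupae titled mitf. Phosphoenolpyruvate carboxykinase turns oxaloacetate into phosphoenolpyruvate for gluconeogenesis and glyceroneogenesis. Its deposited values were 96159, 87237 and 83324 in prepupae titled mitf, against 2150.0, 242 and 1592 in those titled LacZ and 1082, 1876 and 432 in larvae. Prepupae titled LacZ and larvae overlapped and each spread over several fold. Its paralogue Pepck2, which lies next to it, had 42449, 43206 and 33644 in prepupae titled mitf, 4154, 2852 and 2495 in those titled LacZ and 289, 224 and 238 in larvae. Pepck2 thus kept a level in prepupae titled LacZ above every larval library, which Pepck1 did not.

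The aldo-keto reductase genes CG3397 and CG12224 lie side by side. CG3397 had 19014, 20236 and 16351 in prepupae titled mitf, against 349.9, 304 and 299 in those titled LacZ and 566, 433 and 323 in larvae. CG12224 had 9669, 10226 and 8128 in prepupae titled mitf, 93.3, 82.1 and 67.1 in those titled LacZ and 217, 158 and 117 in larvae, so the titled LacZ group was the lowest of the 3. fiz (fezzik), a GMC oxidoreductase, had 7758, 8469 and 7381 in prepupae titled mitf, 100.5, 54.7 and 58.2 in those titled LacZ and 16.6, 13.7 and 25.7 in larvae.

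Mal-A8, a maltase, averaged 709 ± 157 in prepupae titled mitf and 18.3 ± 6.8 in those titled LacZ, and was listed at 0 in all 3 larval libraries. CG6012, of the short-chain dehydrogenase family, averaged 621 ± 29.1 in prepupae titled mitf and 1.3 ± 0.805 in those titled LacZ, and was also listed at 0 in larvae. Mipp1, an inositol polyphosphate phosphatase, had 1053, 612 and 1357 in prepupae titled mitf, and averaged 21.8 ± 8 in those titled LacZ and 23.7 ± 3.61 in larvae. Of 9 maltase genes, Mal-A7 came closest to Mal-A8, averaging 251 ± 85.1 in prepupae titled mitf and 9.49 ± 4.11 in those titled LacZ and listed at 0 in larvae. Mal-A5 averaged 48582 ± 1699 in prepupae titled mitf, 26175 ± 3229 in those titled LacZ and 2893 ± 1152 in larvae. Mipp2 averaged 416 ± 31.2, 263 ± 65.1 and 145 ± 42.5 in those groups.

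**Figure D3:**
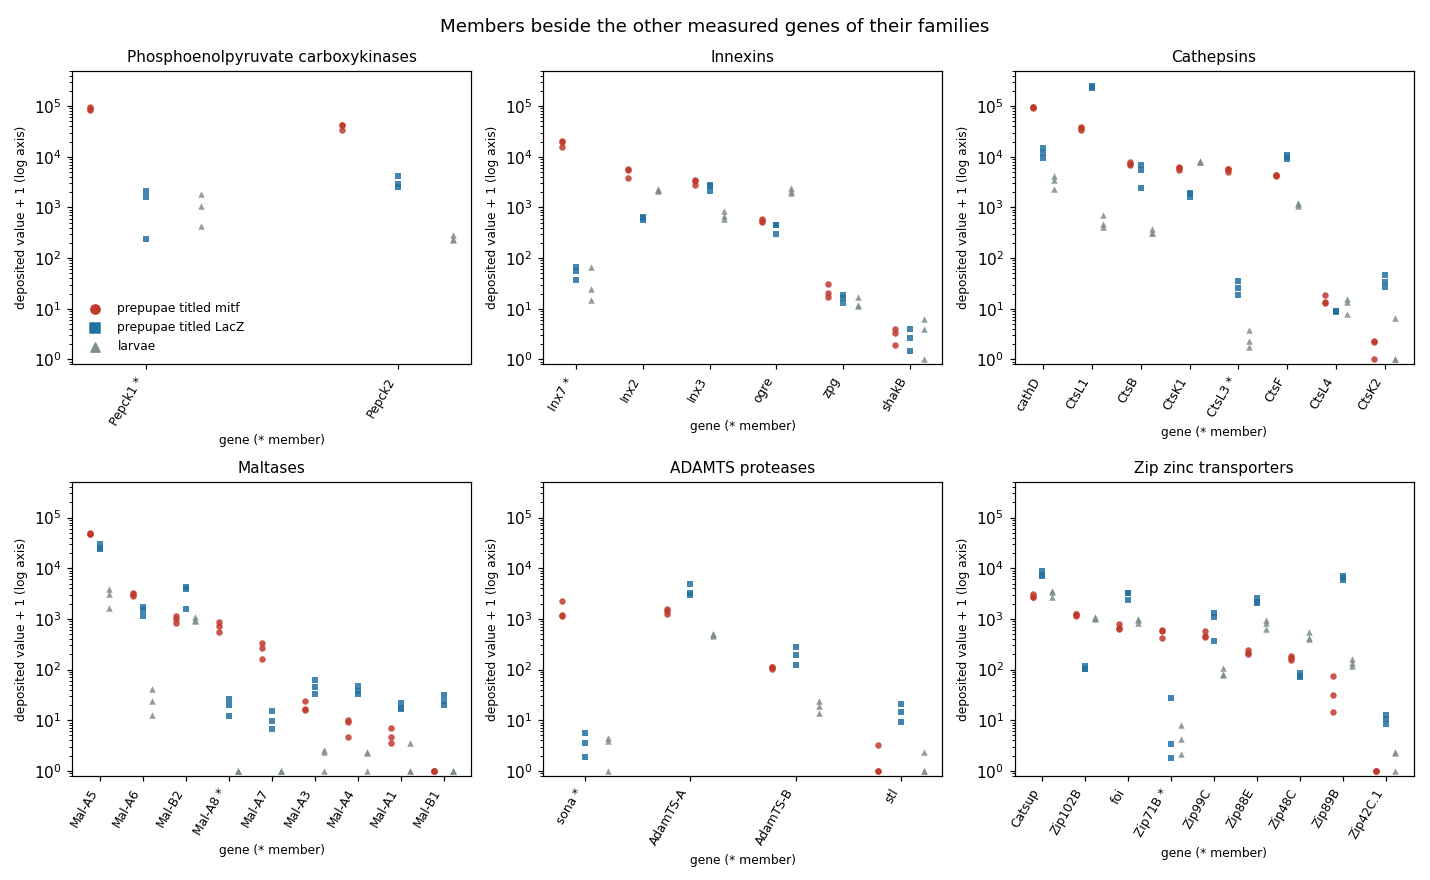
Deposited value + 1 (log axis) of every measured gene in 6 families that hold a member, ordered by mean in prepupae titled mitf, with members marked by an asterisk; each gene has 3 points per group. Only the starred gene of each family meets the rule; Pepck2 and Mal-A7 follow their starred partners most closely, while CtsL1 and Zip89B run the other way between prepupa groups.

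Of 5 secreted or immune proteins, Ama (chromosome 3R, 6762593 to 6765261) was the highest per kilobase of transcript, at 19677 in prepupae titled mitf. Amalgam is a secreted immunoglobulin-domain adhesion protein and a ligand of Neurotactin. Its deposited values were 37702, 35925 and 34577 in prepupae titled mitf, against 1241, 1640.4 and 1174 in those titled LacZ and 0, 2.49 and 2.35 in larvae. All 3 groups were apart, and larvae were near 0. Sid, the stress induced DNase, had 13476, 13892 and 13956 in prepupae titled mitf, 349.9, 254 and 239 in those titled LacZ and 6.92, 9.96 and 6.99 in larvae, the same ordered steps.

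miple2, a heparin-binding growth factor of the midkine and pleiotrophin family, averaged 5224 ± 378 in prepupae titled mitf, 199 ± 15 in those titled LacZ and 55.2 ± 12 in larvae. Its relative miple1 averaged 12.8 ± 6.18, 10.4 ± 3.7 and 3.06 ± 4.16. 7B2, the secretory chaperone that the proprotein convertase amontillado needs to mature, averaged 2431 ± 173 in prepupae titled mitf, 28.5 ± 1.93 in those titled LacZ and 5.31 ± 2.59 in larvae. The convertase gene itself, amon, was low everywhere, averaging 5.93 ± 2.37, 12.5 ± 4.87 and 0.721 ± 0.695. Mtk (metchnikowin), an antifungal peptide made by the fat body under immune challenge, had 1936, 1486 and 5564 in prepupae titled mitf, 21.4, 1.76 and 42.5 in those titled LacZ and 41.1, 4.91 and 11.6 in larvae. Replicate 3 of the prepupae titled mitf was the highest library for Mtk, and the other 2 groups overlapped.

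Another 5 members encode intracellular proteins. a (arc), a PDZ-domain protein, had 3499, 3361 and 3712 in prepupae titled mitf, 86.4, 70.9 and 111 in those titled LacZ and 44.7, 49 and 64.8 in larvae. Ppa, the F-box protein that targets the Paired transcription factor for degradation, averaged 1735 ± 172 in prepupae titled mitf, 39.8 ± 4.33 in those titled LacZ and 49.7 ± 20.3 in larvae. Rchy1, a RING-type ubiquitin ligase, averaged 573 ± 61.6, 11.2 ± 5.62 and 4.99 ± 1.62. insc (inscuteable), which orients the spindle in asymmetric divisions of neuroblasts, averaged 423 ± 29.9, 13.5 ± 4.81 and 17.3 ± 0.639.

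Mst77F (chromosome 3L, 20816901 to 20818027) is known as a chromatin protein of sperm nuclei. It had 1489, 1170.4 and 1500.1 in prepupae titled mitf, 27.9, 60 and 31.2 in those titled LacZ, and 0 in all 3 larval libraries. It lies on the opposite strand within Pka-R1, which averaged 3905 in prepupae titled mitf, 4157 in those titled LacZ and 634 in larvae. Of 7 gonad markers, 4 were measured. Their summed level was 465 to 546 in prepupae titled mitf, 209.7 to 261 in those titled LacZ and 47.8 to 57.7 in larvae. The sperm gene Mst87F made most of it, averaging 360.4 ± 17.4, 119 ± 20.2 and 0, while the germline gene bam averaged 7.9 ± 4.58, 15.9 ± 1.66 and 0.462 ± 0.799. The part of germ cells in the value of Mst77F was not tested.

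The other 21 members have no role given here, and they include the 4 highest members per kilobase. CG9812 (FBgn0034860, chromosome 2R, 23412320 to 23419684) had 146227, 171893 and 178536 in prepupae titled mitf, against 559, 234 and 252 in those titled LacZ and 14.7, 9.23 and 4.94 in larvae. Per kilobase of transcript it reached 105179, rank 12 of the 10189 annotated genes in prepupae titled mitf. CG2444 had 81950.5, 80189.6 and 73723 in prepupae titled mitf, 667, 397 and 416 in those titled LacZ and 475, 414 and 449 in larvae, where the other 2 groups overlapped. It ranked 17 per kilobase.

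CG5697 (chromosome 3R, 21015949 to 21017120) had 51763, 50353 and 57949 in prepupae titled mitf, 310.0, 149 and 178 in those titled LacZ and 0, 0 and 8.05 in larvae. CG34206 (chromosome 2R, 22163738 to 22164594), a single-exon gene, had 30879.6, 36194 and 37066 in prepupae titled mitf, against 123, 125 and 105 in those titled LacZ, and was at 0 in every larval library. These ranked 19 and 27 per kilobase, and both kept an intermediate level in prepupae titled LacZ. CG31636 averaged 21174 ± 445 in prepupae titled mitf, 303 ± 77.7 in those titled LacZ and 73.1 ± 28.8 in larvae, and CG8369 averaged 9686 ± 1472, 493 ± 25.8 and 192 ± 18.9.

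Several of these genes were close to undetected outside the prepupae titled mitf. CG13840 had 659.8, 638 and 1575 in prepupae titled mitf, 0, 0 and 1.49 in those titled LacZ and 0 in every larval library, a ratio of 428. CG8568 had 2842, 2815 and 2707 in prepupae titled mitf, 7.97, 10.6 and 11.2 in those titled LacZ and 1.39, 0 and 0 in larvae. CG45060 and CG9497 averaged 1457 ± 93.7 and 1549 ± 80.6 in prepupae titled mitf, 7.67 ± 1.34 and 6.07 ± 4.44 in those titled LacZ, and 0.458 ± 0.794 and 7.69 ± 2.74 in larvae. Of all 57 genes, 8 were at 0 in all 3 larval libraries and 0 were at 0 in all 3 titled LacZ libraries. The highest value outside the prepupae titled mitf came from a titled LacZ library in 45 genes and from a larval one in 12.

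The thresholds divide a continuous range. Just inside the ratio of 16 lay Zip71B at 16.4, CG8369 at 16.7 and CG9801 at 17. Just outside lay comm2 at 15.6, CG13796 at 14.9, Ugt36D1 at 14.4, LManII at 13.9 and CG4238 at 13.8. LManII, a lysosomal alpha-mannosidase, averaged 72554 ± 5436 in prepupae titled mitf, 3654 ± 1037 in those titled LacZ and 449.6 ± 10.5 in larvae. Just inside the level of 300 the lowest titled mitf values were 310.4 for CG11192, 335 for CG14567 and 349 for CG10005. Just outside they were 194 for obst-J, 191 for CG34236, 147 for sad, 94.7 for CG30083 and 91.5 for CG42876.

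The 5 genes left out by name met both thresholds. Tsf1, the iron carrier transferrin, averaged 102821 ± 18273 in prepupae titled mitf, 294 ± 18 in those titled LacZ and 1679 ± 254 in larvae. santa-maria, a scavenger receptor that takes up carotenoids, averaged 50389.9 ± 1635 and 720.2 ± 245 in the prepupa groups and was 0 in larvae. LManI, another lysosomal mannosidase, averaged 14429.8 ± 1526, 264 ± 62.6 and 8.63 ± 6.64. The antifungal peptide gene Drs averaged 40409.5 ± 1367, 838 ± 309 and 11.2 ± 3.41, and Drsl5 averaged 5896 ± 1772, 14.6 ± 13.4 and 9.01 ± 5.85.

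Within the prepupae titled mitf the members had a higher median coefficient of variation between replicates, 9.51%, against 6.77% for the 3436 other genes with at least 300 in each of these libraries. The highest library was at least 1.5 times the lowest in 12 members (21.1%) and in 148 of the others (4.31%). In 8 of the 12 replicate 3 was the highest, among them Mtk, sona, CG13840, CG14567 and CG9686. CG14567 had 355, 335 and 665 and CG9686 917, 1072 and 1832 in the prepupae titled mitf. Over all members, replicate 3 was the highest of its group in 32 (56.1%), against 35.6% of all tested genes. These shares are descriptions, since the libraries are the ones the rule used.

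The comparison the rule left free is that of the 2 low groups, prepupae titled LacZ minus larvae, because it put 1 common ceiling on all 6 libraries. It asks whether the genes stayed at the larval level in the prepupae with high Mitf transcript. Stage and transgene both differ between these groups, so their parts cannot be told apart. Of the members, 35 (61.4%) were called higher in prepupae titled LacZ than in larvae, 5 (8.77%) lower, and 17 were not called (limma on log2(value + 1), adjusted p under 0.05). Over all 10139 tested genes, 46.3% were called higher, 32.2% lower and 78.5% either way, against 70.2% either way among the members. These shares are not like for like. The rule capped the members in both groups, where many had low values. The 8 members at 0 in every larval library could differ upward only. The member median was a log2 difference of 1.15, against 0.50 over all tested genes, and 1.06 over the 49 members above 0 in some larval library. Of these 49 members, 28 were called higher. With equal library totals the calls over all genes were 5512 higher and 2469 lower, against 4699 and 3260 as deposited.

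Ama differed by 9.20 ± 0.41 on the log2 scale (SE; limma, adjusted p = 1.8e-08), the widest gap of all members. Without larval replicate 1 its difference was 8.61. CG5697, at 0, 0 and 8.05 in larvae, differed by 6.60 ± 0.73 (limma, adjusted p = 1.5e-05), and by 7.66 without larval replicate 3. CG9812 differed by 5.03 ± 0.38 (adjusted p = 9.3e-07) and Sid by 4.97 ± 0.17 (adjusted p = 3.9e-09). The 8 genes at 0 in every larval library could differ upward only, so their direction is no result. Of these, 7 passed the threshold, among them CG34206, Mst77F, CG13116 and Mal-A8, and no fold is given for them. Each of these levels was still a small part of that in prepupae titled mitf: for Ama the means were 36068 ± 1568 in prepupae titled mitf, 1352 ± 252 in those titled LacZ and 1.61 ± 1.4 in larvae.

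Counts by class are read beside the 46.3% of all tested genes called higher and the 32.2% called lower, with the same limit. Among the 12 genes of the proteolysis class, 9 rose in prepupae titled LacZ against larvae and 2 fell. The 9 include Ser7 at 1.06 ± 0.41 (limma, adjusted p = 0.0384), whose call ended in 7 of the 9 fits that left out 1 library. SPH93 differed by 4.26 ± 0.28 (limma, adjusted p = 3.6e-07), CtsL3 by 3.38 ± 0.31 (adjusted p = 3.8e-06) and CG10764 by 2.91 ± 0.57 (adjusted p = 0.0009), or 2.16 without larval replicate 2. Of the 5 secreted and immune genes 4 rose, the exception being Mtk at -0.07 ± 1.03 (adjusted p = 0.953). Of the 7 transport and junction genes only CG1213, at 2.82 ± 0.38, and kcc, at 1.08 ± 0.25, were called. Inx7 differed by 0.82 ± 0.47 (adjusted p = 0.132) and CG1607 by 0.28 ± 0.35 (adjusted p = 0.478), and both passed the threshold when larval replicate 3 was left out, at 1.43 and 0.70. Inx7 also did so with equal library totals, at 1.30. Of the 7 metabolic enzymes 3 rose and 2 fell, and Pepck1 differed by -0.03 ± 0.76 (adjusted p = 0.977). Of the 5 intracellular genes 3 rose, and of the 21 without a given role 14 rose and 1 fell. These counts include genes at 0 in every larval library, which could differ upward only, among them CG30088, Mst77F, Mal-A8 and CG6012. Class differences themselves were not tested.

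By contrast, 5 members fell below the larval level in prepupae titled LacZ, although they were at least 16 times above it in those titled mitf. CG30286 had 7.2, 0.887 and 2.24 in prepupae titled LacZ, against 26.4, 12.5 and 26.2 in larvae, a log2 difference of -2.55 ± 0.50 (limma, adjusted p = 0.001). Nepl12 differed by -2.15 ± 0.25 (adjusted p = 2.3e-05), CG14569 by -1.56 ± 0.32 (adjusted p = 0.0013) and CG12224 by -0.98 ± 0.21 (adjusted p = 0.0019). In these 4 genes (7.02% of members) all 3 titled LacZ libraries were below all 3 larval ones, as in 33.0% of tested genes. In 34 members (59.6%) they were above, as in 47.0%. These shares too are not like for like. CG3397 was at the threshold, at -0.44 ± 0.18 (adjusted p = 0.0496), with overlapping groups. Its call ended in 7 of the 9 fits that left out 1 library, and with equal library totals its difference was 0.05. CG30286 lies opposite the growth factor receptor gene Egfr, which averaged 3409 in prepupae titled mitf, 697 in those titled LacZ and 2987 in larvae.

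Over the 3 prepupa libraries titled LacZ, the members summed to 10610.2, 7548 and 8016, while Mitf stood at 35204, 68535 and 45647. The library with the least Mitf transcript, replicate 1, held the highest member sum, with 3 libraries too few to test. This was not particular to the members. Of the fat body markers, Fbp1, Lsp1alpha, Lsp1gamma, apolpp (88665, 44915 and 77745) and FASN1 (11139, 4514 and 8929) were also highest in replicate 1. Fbp2, Lsp1beta, Lsp2 and Adgf-D were highest in replicate 3. A link to the level of Mitf was not tested. Among single members, replicate 1 was the highest titled LacZ library in 23 of 57 (40.4%), against 31.6% of all tested genes. Replicate 2, with the most Mitf transcript, was the highest in 21 (36.8%), against 42%, and replicate 3 in 13 (22.8%), against 26.4%. Pepck1 alone had 2150, 242 and 1592 in these libraries, in replicate order.

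**Figure D4:**
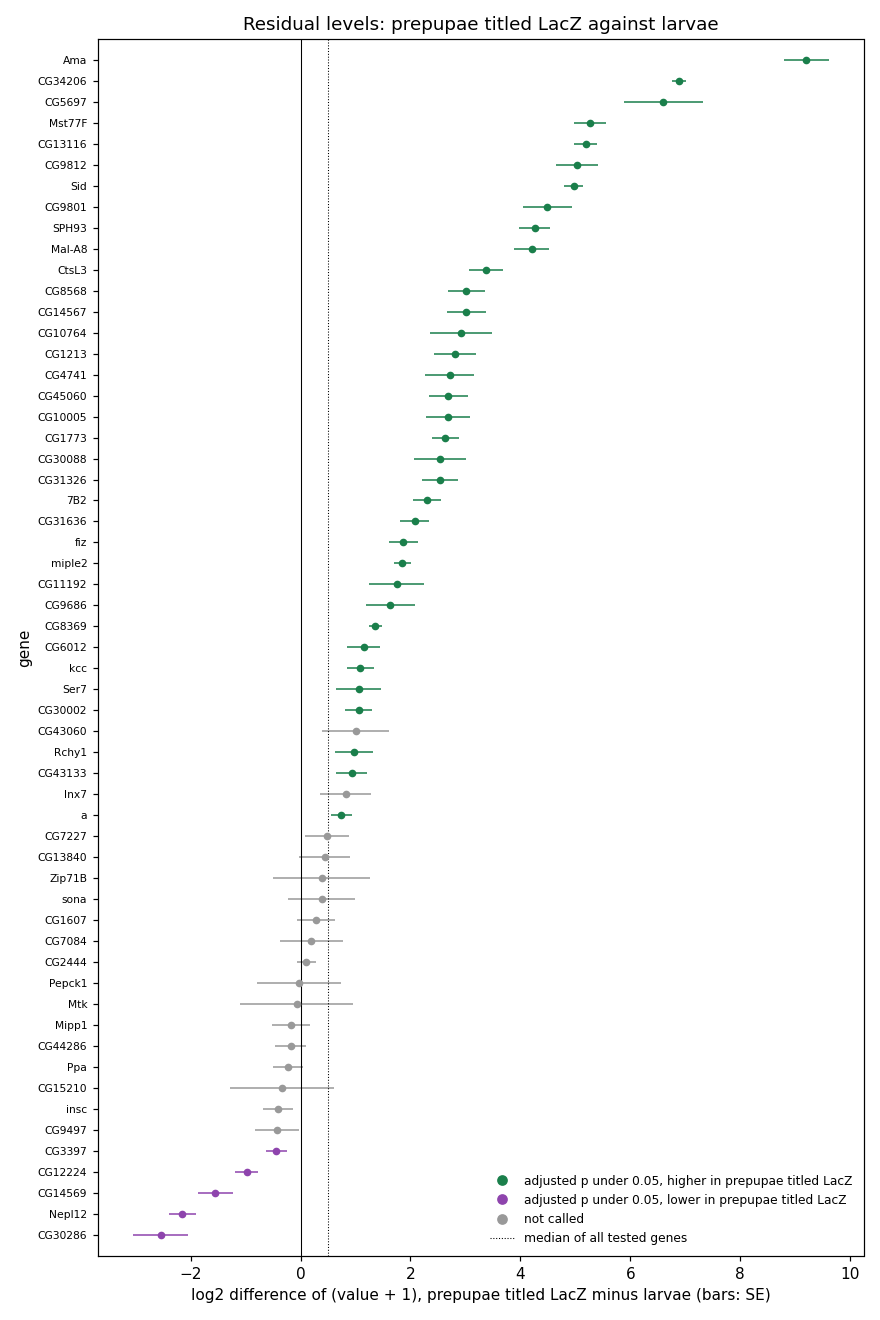
Log2 difference of (value + 1), prepupae titled LacZ minus larvae, for the 57 genes (points, with SE bars; 3 libraries per group), in descending order. Green marks the 35 genes called higher in prepupae titled LacZ, purple the 5 called lower and grey the 17 not called; the dotted line is the median of all tested genes, 0.50.

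Of 46 ecdysone response genes 36 were measured, and 0 of them were members. In prepupae titled mitf 25 were called higher than in larvae and 7 lower, beside 34.8% and 31.7% of all tested genes. In prepupae titled LacZ 22 were higher than in larvae and 2 lower, beside 46.3% and 32.2%. Between both prepupa groups 13 were called higher in those titled mitf and 11 lower, beside 31.6% and 41.1%. The ecdysone-induced nuclear receptor genes Hr3 and Hr4 averaged 1774 ± 229.6 and 5401 ± 176 in prepupae titled mitf, 527 ± 149 and 2560.5 ± 387 in those titled LacZ, and 1.52 ± 1.84 and 0.685 ± 1.19 in larvae. Eip93F, a transcription factor of tissue remodelling, averaged 1692 ± 199, 165 ± 91.7 and 0.456 ± 0.79. The receptor gene EcR ran the other way between prepupa groups, with 122, 142 and 178 in prepupae titled mitf, 3465, 2566 and 3023 in those titled LacZ and 979, 753 and 550.3 in larvae (log2 difference between prepupa groups -4.35, limma adjusted p = 6.1e-08).

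Markers of other tissues were also read beside the members, and several sums rested on 1 gene. Measured were 9 of 11 listed hemocyte genes, 12 of 13 for Malpighian tubule, 8 of 8 for imaginal disc, 10 of 10 for muscle, 5 of 6 for neuron and glia, 11 of 13 for gut, 9 of 10 for epidermis and cuticle, 4 of 4 for trachea and 2 of 6 for ring gland. The summed level of the hemocyte genes was 6062 to 7129 in prepupae titled mitf, 5140 to 6045 in those titled LacZ and 3126 to 4834 in larvae, mostly srp, which the fat body also expresses. Between both prepupa groups 3 hemocyte genes were called higher in those titled mitf and 2 lower, beside 31.6% and 41.1% of all tested genes. The peroxidasin gene Pxn averaged 1249.7 ± 352 in prepupae titled mitf, 294 ± 33.5 in those titled LacZ and 146 ± 128 in larvae. The prophenoloxidase genes PPO1 and PPO2 averaged 199 ± 41.6 and 234 ± 31.7 in prepupae titled mitf, 24.1 ± 13.1 and 40.1 ± 19.8 in those titled LacZ, and 266 ± 223 and 378 ± 275 in larvae. These 3 were the genes called higher. Of the 2 called lower, Hml averaged 16 ± 5.03, 111 ± 1.71 and 160.2 ± 133. The other, ItgaPS4, averaged 2.83 ± 4.91, 403 ± 17.4 and 6.06 ± 4.88.

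Malpighian tubule markers summed to 3425 to 3834 in prepupae titled mitf, 44913 to 48101 in those titled LacZ and 4446 to 5488 in larvae. Of these, 8 of 12 were called lower in prepupae titled mitf than in those titled LacZ and 1 higher. Over all tested genes, 41.1% were called lower and 31.6% higher. Imaginal disc markers summed to 1656 to 1829, 12248 to 12923 and 1799.6 to 1845. The high sum in prepupae titled LacZ was ap, which averaged 801 ± 45.3, 11830.4 ± 343 and 1065 ± 62.3, while ci averaged 584 ± 42.8, 493 ± 44.4 and 540.4 ± 53.3, and hth 323 ± 27.1, 289.8 ± 61.5 and 219 ± 32.2. Muscle markers summed to 852 to 1107, 5980.0 to 7294 and 2934 to 3410. The high sum in prepupae titled LacZ was mostly sls, which averaged 424 ± 102, 5455 ± 453 and 96 ± 63. Most other muscle genes were highest in larvae: bt averaged 479 ± 40.5, 846 ± 232 and 2657 ± 446. In prepupae titled LacZ 6 of the 10 were called lower than in larvae and 2 higher, beside 32.2% and 46.3% of all tested genes. Neuron and glia markers summed to 19367 to 20726 in prepupae titled mitf, 2023 to 3193 in those titled LacZ and 2127 to 3383 in larvae, nearly all of it Syt1, while repo averaged 0, 14 ± 11.7 and 0. Gut markers summed to 108 to 793, 534 to 605 and 388 to 543, epidermis and cuticle markers to 59.0 to 226, 376 to 600.4 and 25.0 to 522, and trachea markers to 170.4 to 248, 79.9 to 247 and 70.0 to 112 in the same order. Of ring gland markers, sad averaged 333 ± 205, 1.56 ± 1.59 and 0. The part of such tissues in the members' values was not tested.

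The members were compact genes. Their median transcript was 1567 bases long, against 2403 for the other annotated genes with at least 300 in every library titled mitf. These others were not matched to the members by level. The median span was 1998 against 3713 bases, and 40.4% had at most 2 exons, against 19.5%. A single annotated transcript was found in 28 members (49.1%), against 26.6% of the others. All 57 are annotated as protein coding, and 35 carry only a CG number as a symbol. They lie on 2R (18 genes), 3R (17), X (9), 2L (7) and 3L (6). On 2R were 31.6% of members and 20.7% of measured genes. These are descriptions without a test.

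Some members are neighbours. With gaps of up to 20 kb, 12 of 57 (21.1%) fell into 5 clusters. Under the same thresholds turned round, 62 of 203 annotated genes (30.5%) high only in prepupae titled LacZ and 2 of 49 (4.08%) high only in larvae did so. No gene was left out by name from the other sets, and all sets differ in size. The shares are therefore not like for like. The first pair, CG30002 and CG1773, both trypsin-family genes on the same strand, spans 9704384 to 9707580 on 2R. On 3R, CG10005, CG12224 and CG3397 lie between 11975156 and 11984541. Between them lies CG18547, an aldo-keto reductase gene as are CG12224 and CG3397, which was no member: it averaged 2041 ± 206 in prepupae titled mitf, 164 ± 62.7 in those titled LacZ and 1943 ± 121 in larvae. Just beyond CG3397, mfas, a secreted fasciclin-domain protein gene, averaged 17623 ± 1656, 1176 ± 192 and 1094 ± 65.2.

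On the X, Ser7, CG45060 and CG9686 fell within 9865233 to 9880535. The 4 measured genes between CG45060 and CG9686 were no members. CG45061 and CG15247 averaged 24.5 ± 7.97 and 11.8 ± 4.07 in prepupae titled mitf, 6.15 ± 2.28 and 10.3 ± 1.9 in those titled LacZ, and 1.03 ± 1.79 and 1.81 ± 0.597 in larvae. CG32695 averaged 2492 ± 328 in prepupae titled mitf, 2314 ± 171 in those titled LacZ and 1144 ± 97.1 in larvae, and CG1468 averaged 2829 ± 126, 437 ± 77.2 and 11001 ± 1090.1. On 3L, CG14569 and CG14567 flank CG14568, which averaged 0, 0.533 ± 0.923 and 3.32 ± 3.13. Next to CG14567, CG14566 averaged 19.9 ± 5.27 in prepupae titled mitf, 59.1 ± 10.1 in those titled LacZ and 813 ± 97.1 in larvae. Over all direct neighbours that were no members, 35 of 102 (34.3%) were called higher in prepupae titled mitf in both comparisons, against 16.5% of all tested genes. Neighbours that overlap a member are counted among them.

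**Figure D5:**
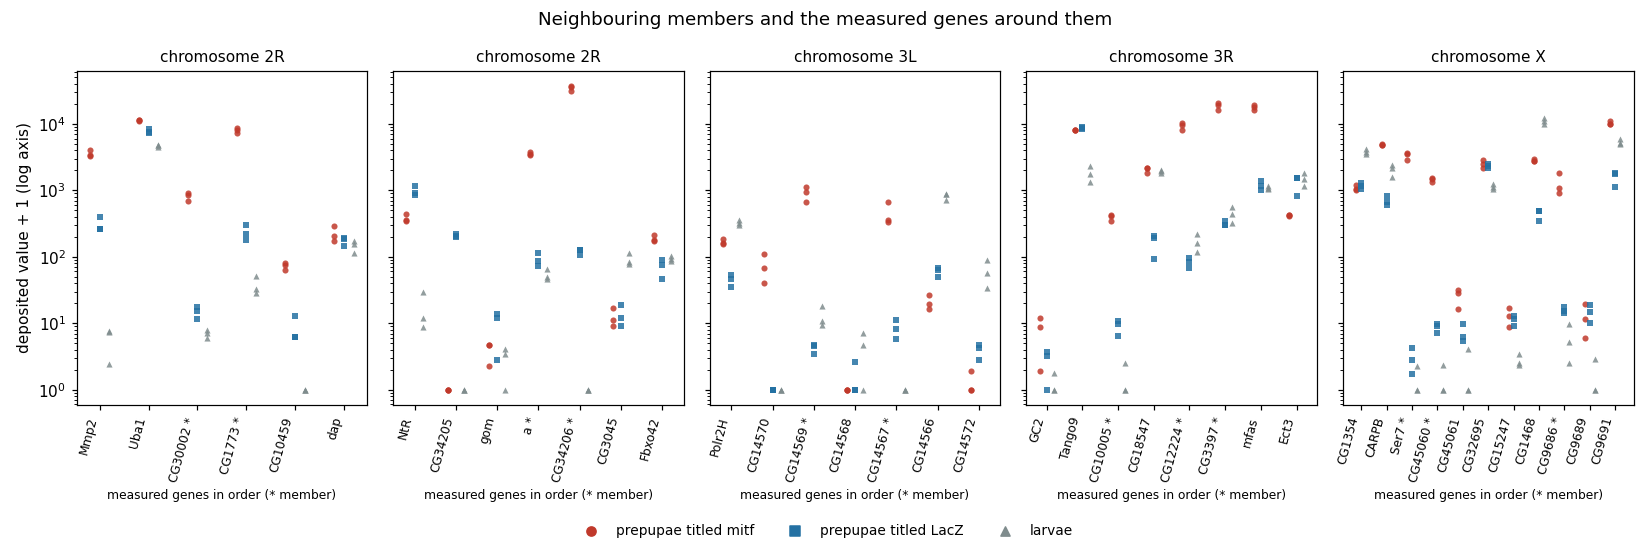
Deposited value + 1 (log axis) of the measured genes in and around the 5 clusters, in chromosomal order, with members marked by an asterisk and 3 points per group for each gene. In each panel members with red points far above the blue and grey stand beside genes in which the groups are close or in another order, such as CG18547 and CG14566.

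Where genes overlap, their reads could be shared. Of the members 18 overlap another measured gene, 6 of them on the same strand and 13 on the opposite strand. The library kit keeps strand, but whether the assignment of reads used it is not given in the sources used here. These overlaps are of gene spans, introns included. CG34206 lies within the span of a, on the opposite strand, and both were members. In larvae a averaged 52.8 while CG34206 was at 0 in every library. Whether the 2 genes shared reads in the prepupae was not tested. CG44286 lies within CG8788 on the same strand, and CG8788 averaged 3594 in prepupae titled mitf, 647 in those titled LacZ and 424 in larvae. insc overlaps sktl over 8747 bases on the same strand, and sktl averaged 786, 531 and 736 in these groups. fiz lies opposite Flo2, which averaged 149, 154 and 291, far from the order seen in fiz. Where reads were shared, the values of these overlapping members are uncertain, and such sharing was not tested.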

How the data were processed

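Messenger RNA of 9 fat body libraries was measured by stranded poly(A) sequencing. The submitters' processing notes name bcl2fastq, Salmon 1.5.2, DESeq2 and the genome build BDGP6. The authors deposited 1 table of values per library, a normalised signal that was not made of whole numbers. Over the 7791 genes above 0 in all libraries, each library had a median ratio of 0.9926 to the genes' geometric means, as median-of-ratios scaling gives. Values were near whole multiples (tolerance 0.05, multiples up to 10) of 1 unit per library in 69.7% to 76.3% of low values, so read counts were not recovered. That unit was 0.744 to 1.39 per read, or about 18500000 to 29000000 reads per library.

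A single fit of limma 3.58.1 (R 4.3.3) with a mean-variance trend was made on log2(value + 1) over all 9 libraries, for the 10139 genes that reached 1 in 3 or more libraries. Fold changes are on that scale, which understates changes of low genes. P-values were two-sided and adjusted by Benjamini-Hochberg over all tested genes, with calls at adjusted p under 0.05. All 57 members passed the filter, since the 3 libraries titled mitf alone suffice. The method was checked on simulated data. Symbols, positions and transcript lengths came from the Ensembl annotation of BDGP6.54 for 10189 identifiers, and levels per kilobase used the longest transcript. Family membership of serine proteases came from RefSeq synonyms. Figures were drawn with matplotlib 3.10.9.

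The members, the gene and marker lists, and the tests were chosen with earlier results of these data known, and functional classes after their values were seen. Every member could be named. Values in every library were given for those with the highest level, the largest ratio or the largest difference, for those next to a threshold and for up to 6 of a class. Other genes were named as relatives, neighbours, markers or genes just outside the rule. Alternatives covered pseudocount, filter, scaling, trend, samples in the fit, a replicate block, leaving out each library and the thresholds of the rule. Replicate numbers did not pair the libraries.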

Additional observations from a re-analysis of the deposited data

Results flagged for a closer look

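In 4 members all 3 libraries of prepupae titled LacZ lay below all 3 larval ones, the opposite side from the prepupae titled mitf, whose place above the larvae is fixed by the rule. They are 7.02% of the members, while 33.0% of all tested genes lay below the larvae in this way. These shares are not like for like, since many members had low values in both of these groups. For prepupae titled LacZ minus larvae, the log2 difference was -2.55 for the trypsin-family gene CG30286, -2.15 for the neprilysin-like gene Nepl12, -1.56 for CG14569 and -0.98 for the aldo-keto reductase gene CG12224. Both differences of the prepupae titled mitf, from larvae and from those titled LacZ, were used to choose these genes, so that the contrast in direction was not tested.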

How the results depend on the processing

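The number of genes that met the rule was 94 with a ratio of at least 8 and 33 with a ratio of at least 32, against 57 at 16. It was 59 with a level of at least 100, 38 with at least 1000, 48 with libraries scaled to equal totals, 58 with trimmed mean scaling, and 57 to 62 with 1 library left out. Equal totals lower the prepupae titled mitf against those titled LacZ, moving the median of all genes by -0.41, and raise those titled LacZ against larvae by 0.45. In prepupae titled LacZ minus larvae, 37 to 41 members were called over the alternatives that kept all libraries, 33 to 37 of them higher and 4 or 5 lower. With 1 library left out 37 to 42 were called, 33 to 36 higher and 4 to 6 lower. The replicate numbers did not pair the libraries (correlations of same-numbered libraries between -0.07 and 0.09). A replicate block gave 40 members called, 35 higher and 5 lower, and over all genes 7907, 6662 and 7300 calls for prepupae titled LacZ minus larvae, prepupae titled mitf minus larvae and prepupae titled mitf minus those titled LacZ.

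Single calls in prepupae titled LacZ minus larvae changed as follows, and the cause was not tested. CG3397 turned to 0.0493 with equal library totals, where CG2444 (0.59) and Inx7 (1.30) gained a call. CG3397 was not called with a pseudocount of 0.1 or without a mean-variance trend, at -0.44 in each. With the 2 groups compared fitted alone, CG3397 (-0.44), Ser7 (1.06) and Rchy1 (0.98) were not called. The CG3397 call ended in 7 of the 9 fits that left out 1 library, where the difference lay between -0.64 and -0.24, and so did that of Ser7, between 0.75 and 1.45. The call of Rchy1 ended without titled LacZ replicate 2 (0.63) and without larval replicate 1 (0.73). CG6012 and Ser7 were not called with a pseudocount of 5, at 0.33 and 0.34. Not called in all libraries but called with 1 left out were CG9497 without titled LacZ replicate 1 (-0.91), CG7227 without titled LacZ replicate 2 (0.92), CG43060 without larval replicate 2 (1.54), and Ppa (-0.57), Inx7 (1.43) and CG1607 (0.70) without larval replicate 3. Many low values outside the prepupae titled mitf are worth only a few reads, which limits differences between those groups.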
